A study of Mus musculus with 10 samples.

Results

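Expression was followed for 10 genes of the NFAT, TOX, NR4A and EGR transcription factor families, of the 57825 genes listed in the expression table. They were taken by name, as Nfatc1, Nfatc2, Nfatc3, Tox, Tox2, Nr4a1, Nr4a2, Nr4a3, Egr2 and Egr3, and each name was listed. RNA sequencing covered 10 samples of mouse CD8+ T cells in 2 groups of 5. The cells had been co-cultured with 4T1 cells, a mammary carcinoma line of Balb/c mice. The paper names purified CD8+ T cells as the source of the RNA but describes no purification step after co-culture. The sample labels give day 3 and do not say from which step it was counted. All samples came from spleens of female Balb/c mice aged 7 to 8 weeks, and the T cells of both groups were first activated for 12 h on plate-bound anti-CD3 with anti-CD28 and IL-2. The CD8+4T1 group received no sodium acetate (NaAc). The CD8+4T1+NaAc group was kept in 5 mM NaAc for 24 h before the 48 h co-culture, and its labels name acetate in the co-culture too. The 4T1 cells of this group may therefore have been exposed to NaAc as well. The comparison asks how NaAc changed gene expression of CD8+ T cells under co-culture. No T cells without tumor cells were among these samples, and the labels do not say whether replicates came from separate mice or cultures, so p-values measure the spread between these samples only.

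NFAT proteins wait in the cytoplasm of resting T cells. Calcium that enters after T cell receptor engagement activates the phosphatase calcineurin, which strips phosphate groups from NFAT and lets it enter the nucleus. With AP-1 as a partner, NFAT drives effector cytokines, and without that partner it favours a programme of anergy and exhaustion to which EGR, NR4A and TOX factors belong. Egr2 and Egr3 encode zinc finger factors that limit T cell activation, the NR4A genes encode orphan nuclear receptors induced within hours of receptor signalling, and TOX is a DNA-binding protein that maintains exhausted CD8+ T cells. The activity of NFAT depends on the phosphorylation and location of the protein, which mRNA levels do not report.

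Promoter sequence is shown for the genes whose windows held a repeated or rare motif, since the NR4A genes are known as targets of CREB, which binds TGACG, and Egr2 as a target of serum response factor, which binds CArG boxes. RefSeq windows on GRCm38.p6, from 250 bases before to 50 after a start site, were held for 7 of the 10 genes, namely Nfatc2, Nfatc3, Tox2, Nr4a1, Nr4a2, Nr4a3 and Egr2. Each NR4A window carried 4 matches to TGACG on either strand, and 0.231% of 32851 windows of this length held 4 or more (20.8% held at least 1). The lines give the part upstream of annotated exons, 5′ to 3′ on the gene's strand, with TGACG or its reverse complement in capitals; for Nr4a3 this part ends before the last match.
Nr4a1, chr15:101266596-101266845, plus strand: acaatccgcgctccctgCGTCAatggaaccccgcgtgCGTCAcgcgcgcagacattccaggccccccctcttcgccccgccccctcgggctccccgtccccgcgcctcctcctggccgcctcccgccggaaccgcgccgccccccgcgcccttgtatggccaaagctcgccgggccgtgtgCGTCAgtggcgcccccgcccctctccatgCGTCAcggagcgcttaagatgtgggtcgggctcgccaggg
Nr4a2, chr2:57124004-57124253, minus strand: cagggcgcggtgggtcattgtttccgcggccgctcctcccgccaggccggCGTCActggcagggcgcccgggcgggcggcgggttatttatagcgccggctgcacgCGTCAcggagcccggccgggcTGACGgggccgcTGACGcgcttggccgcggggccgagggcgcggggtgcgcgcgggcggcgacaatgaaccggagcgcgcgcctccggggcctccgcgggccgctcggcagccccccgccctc
Nr4a3, chr4:48045055-48045152, plus strand: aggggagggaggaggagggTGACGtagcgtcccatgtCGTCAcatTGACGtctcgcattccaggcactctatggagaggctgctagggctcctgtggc

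Of the 5 Egr2 windows, which overlap in part, 4 held a CArG box (CC, then 6 bases of A or T, then GG), and 1.63% of all windows held one. The 2 distinct boxes are given below in 30 bases of the plus strand, with the box in capitals.
Egr2 box, chr10:67537484-67537513: cggatcttctCCTTTTTTGGaaagtctcgg
Egr2 box, chr10:67537787-67537816: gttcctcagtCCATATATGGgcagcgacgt

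A match to the EGR site GCGNGGGCG lay in the windows of Nr4a1 and Nr4a2 (5.55% of windows) and overlapped none of the capitals. The NFAT core GGAAA was found in windows of Nfatc2, Nfatc3, Tox2, Nr4a2 and Egr2, but 61.3% of all windows held it. These matches describe the sequence and not binding.

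Expression was given as FPKM (fragments per kilobase of gene length, scaled to the fragments of the sample), and between 15010132 and 17269435 fragments per sample were recovered in the listed genes. Cd8a, which encodes a chain of the CD8 co-receptor, was between 72.2 and 81.9 FPKM in the 10 samples. The groups differed in other marker lists. Summed 4T1 and epithelial markers were between 8.17 and 18.1 FPKM in CD8+4T1 and between 64.5 and 172.9 FPKM in CD8+4T1+NaAc, and 5 of the 7 tested were higher, of which Krt7 and Cldn3 (means of 0.143 and 0.380 FPKM in CD8+4T1) passed the filter of 0.5 FPKM only through CD8+4T1+NaAc. Of the 13 markers in this list, Krt5, Krt14, Krt19, Cldn4 and Esrp1 were at 0 in at least 1 sample, and Cdh1, which did not pass the filter on low values, was between 0.0125 and 0.0663 FPKM in CD8+4T1 and between 0.355 and 0.928 FPKM in CD8+4T1+NaAc, with no overlap. Summed T cell markers were between 1016 and 1137 FPKM in CD8+4T1 and between 906 and 1018 FPKM in CD8+4T1+NaAc. Of these 12 markers 7 were lower and 1 was higher, beside 19.0% and 17.6% of all tested genes. With each sample rescaled to the same total FPKM, 5 were lower and 3 higher, beside 8.83% and 31.2%. With samples scaled to these markers themselves, 3 were lower and 3 higher, beside 7.13% and 31.9%. That scaling makes the mean log level of the 12 markers equal in all samples, so this split cannot show whether they differ as a set. Without replicate 1 of CD8+4T1+NaAc, 7 were lower and 2 higher. Of 14 markers of other immune cells, 6 were tested and 3 were higher, beside 17.6% of all tested genes. These were Cd4, Lyz2 and H2-Aa, the last of which passed the filter only through CD8+4T1+NaAc. The sum of the list was 27.2 to 36.1 FPKM against 30.1 to 33.4 FPKM. Cd68 held most of this sum, with means of 25.8 FPKM in CD8+4T1 and 22.8 FPKM in CD8+4T1+NaAc. It was not called (log2 fold change -0.17, limma adjusted p = 0.133). In bulk RNA fewer cells of a type and less RNA per cell cannot be told apart. Replicate 1 stood apart in both groups, with 20233 genes above 0 in CD8+4T1+NaAc against at least 24681 in the rest of that group, and 22291 in CD8+4T1 against at least 23786. For the 10 genes, their relatives and the 7 gene lists read below, calls that change without either sample are given with and without it.

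The 10 genes spanned a wide range of FPKM, as the plot of levels by sample shows. NR4A transcripts were the most abundant in both groups. In CD8+4T1 the order was Nr4a1, Nr4a3, Nr4a2, Nfatc1, Egr2, Nfatc2, Nfatc3, Egr3, Tox and Tox2, and only the neighbours Egr2 and Nfatc2, and Nfatc3 and Egr3, overlapped in range. In CD8+4T1+NaAc, Nr4a2 stood before Nr4a3 and Nfatc3 before Nfatc2, but within each of these pairs, and between Egr2 and Nfatc3, the ranges overlapped. Nr4a1 was above 97.2% of the 15710 tested genes in mean FPKM, and Tox above 21.7%.

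**Figure D1:**
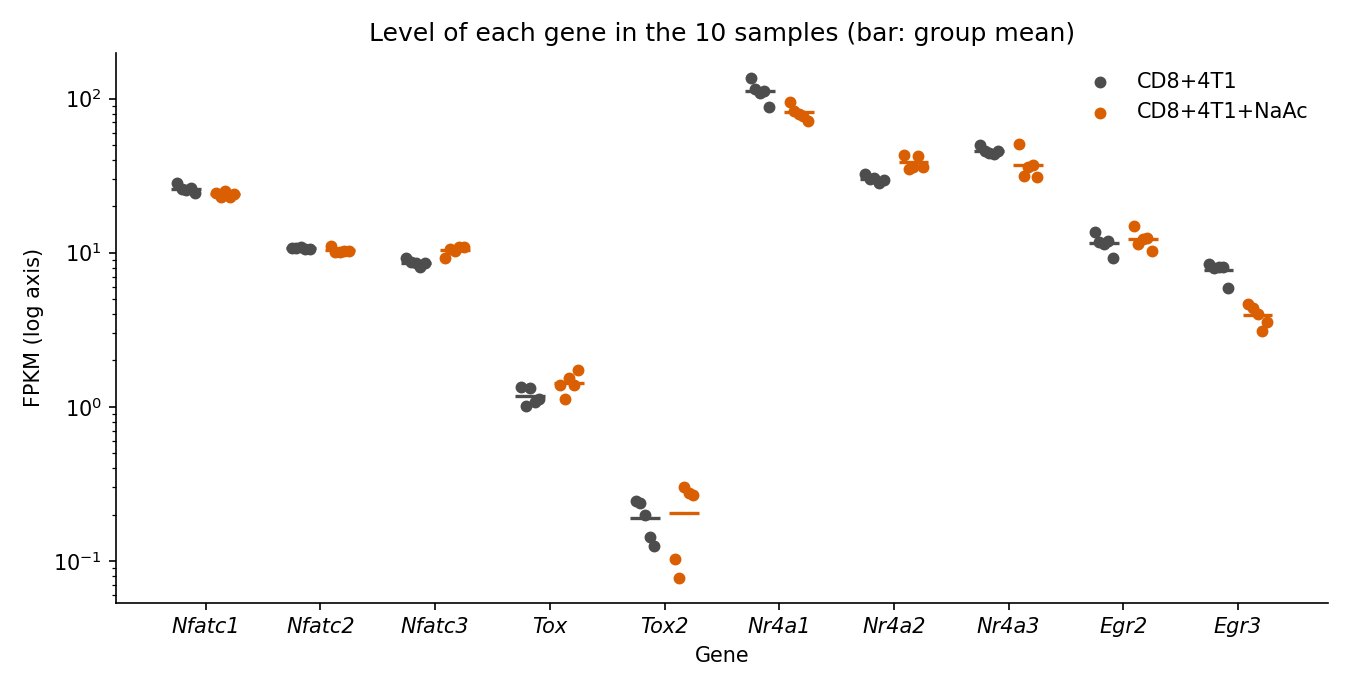
FPKM of each of the 10 genes in every sample, on a log axis, with CD8+4T1 in grey, CD8+4T1+NaAc in orange and a bar at each group mean (n = 5). Nr4a1 lies between 72.0 and 136 FPKM and Tox2 between 0.078 and 0.303 FPKM, and the orange points of Egr3 all lie below the grey ones.

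Of the 9 genes that passed the filter of a mean of at least 0.5 FPKM, 4 had an adjusted p below 0.05 in limma, 2 higher (Nfatc3 and Nr4a2) and 2 lower (Nr4a1 and Egr3) in CD8+4T1+NaAc. Over all 15710 genes tested 36.5% passed, 17.6% higher and 19.0% lower, so 4 of 9 was near the background. The groups did not overlap for 3 genes (Nfatc3, Nr4a2 and Egr3), against 26.4% of all genes tested. The median log2 fold change of the 9 genes was -0.05, against -0.02 for all genes tested. Genes of 1 family were not called alike, and Egr3 alone had an absolute fold change above those of 89.8% of tested genes; the next, Nr4a1, exceeded 70.2%.

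**Figure D2:**
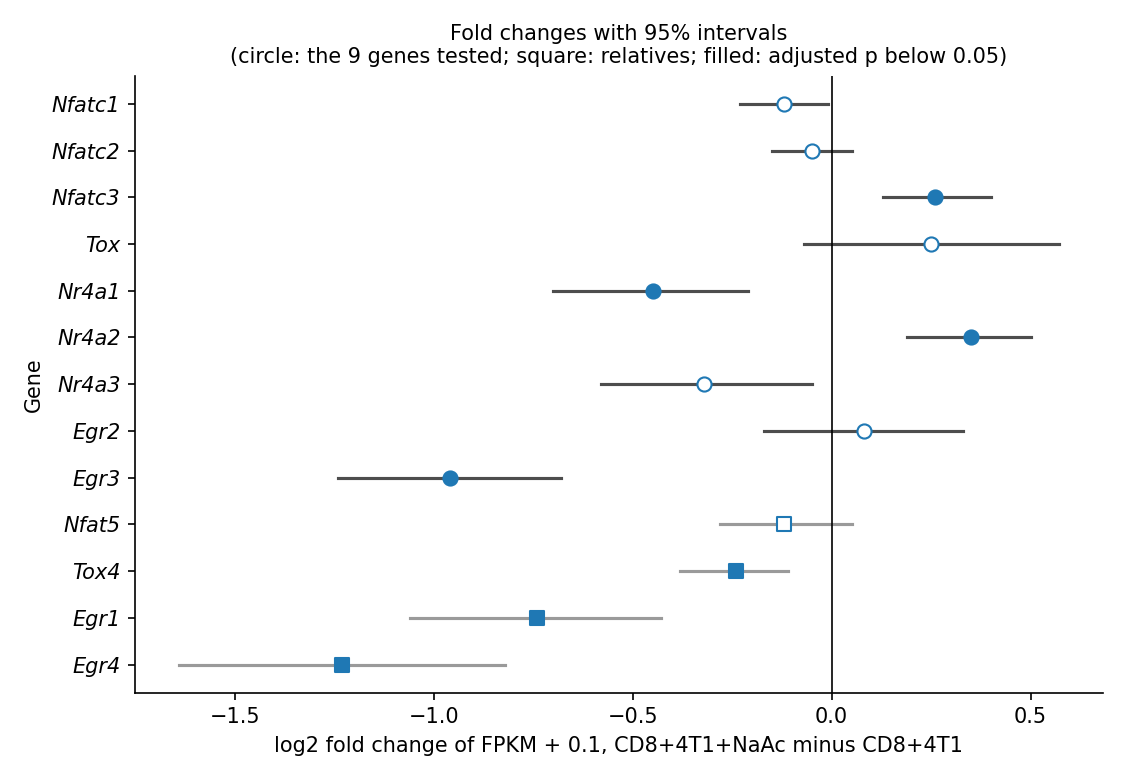
Log2 fold changes of FPKM + 0.1, CD8+4T1+NaAc minus CD8+4T1, with 95% limma intervals, for the 9 tested genes (circles) and 4 relatives (squares), filled where the adjusted p was below 0.05. Egr3 stands at -0.96 and Egr4 at -1.23, while the interval of Egr2 spans 0.

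Of the NFAT genes, which encode the calcium-responsive factors at the head of the axis, Nfatc3 was higher with NaAc. Nfatc3 (ENSMUSG00000031902, listed on chromosome 8 from 106785472 to 106857169) was at 9.21, 8.66, 8.55, 8.09 and 8.56 FPKM in replicates 1 to 5 of CD8+4T1 and at 9.22, 10.5, 10.3, 10.9 and 10.9 FPKM in those of CD8+4T1+NaAc. The groups did not overlap, although replicate 1 of CD8+4T1+NaAc lay just above the highest control. The mean FPKM was 8.62 ± 0.399 without and 10.4 ± 0.712 with NaAc (SD, n = 5 each), which gave a log2 fold change of 0.26 (95% interval 0.13 to 0.40, limma adjusted p = 0.00565). Without replicate 1 of CD8+4T1+NaAc the log2 fold change was 0.31, and Nfatc3 was called whichever single sample was left out. Its listed range overlaps by 219 bases that of Esrp2, an epithelial splicing regulator on the opposite strand, which was at 0.586 FPKM in CD8+4T1 and 1.07 FPKM in CD8+4T1+NaAc. The strand setting of the counting was not given in the sources used here, so reads of this overlap cannot be assigned.

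Nfatc1, whose short isoform is induced by NFAT itself in activated T cells, was the most abundant NFAT gene, with a mean FPKM of 26.1 ± 1.37 without and 23.95 ± 0.973 with NaAc (SD, n = 5 each). CD8+4T1 samples lay between 24.5 and 28.2 FPKM, CD8+4T1+NaAc samples between 23.0 and 25.2 FPKM, and the ranges overlapped. The log2 fold change was -0.12 (95% interval -0.23 to -0.01, limma adjusted p = 0.0745), so no change was called; isoforms were not separated in these values. Its sign depended on the scaling, with 0.05 after rescaling to the same total FPKM and 0.08 after scaling to T cell markers. Nfatc2, which encodes the NFAT protein already present in resting T cells, varied little, from 10.5 to 10.9 FPKM in CD8+4T1 and from 10.1 to 11.1 FPKM in CD8+4T1+NaAc. Its log2 fold change was -0.05 (95% interval -0.15 to 0.05, limma adjusted p = 0.395), with values of 0.12, 0.15 and 0.04 under equal totals, T cell marker scaling and voom on recovered fragments.

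Nfatc1 held 57.4 ± 1.06% (SD, n = 5) of the summed FPKM of the 3 NFAT genes in CD8+4T1 and 53.6 ± 1.36% (SD, n = 5) in CD8+4T1+NaAc. Nfatc3 held 19.0 ± 0.61% and 23.2 ± 1.70% (SD, n = 5 each), while the sum of the family was 45.4 ± 1.69 and 44.7 ± 0.815 FPKM (SD, n = 5 each). The shares of Nfatc1 did not overlap between the groups, nor did those of Nfatc3. Nfat5, a relative that responds to osmotic stress and not to calcineurin, was at 33.4 ± 2.41 and 30.8 ± 2.87 FPKM (SD, n = 5 each; log2 fold change -0.12, limma adjusted p = 0.254). Nfatc4, a calcineurin-responsive relative, did not exceed 0.242 FPKM.

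The TOX genes, which encode HMG-box proteins, were the least abundant. Tox (ENSMUSG00000041272, listed on chromosome 4 from 6686353 to 6991557) was at 1.35, 1.02, 1.33, 1.07 and 1.13 FPKM in CD8+4T1 and at 1.38, 1.12, 1.53, 1.38 and 1.73 FPKM in CD8+4T1+NaAc. The ranges overlapped, although 4 of the 5 CD8+4T1+NaAc samples were above the highest CD8+4T1 sample. The log2 fold change was 0.25 with a wide interval (-0.07 to 0.57, limma adjusted p = 0.202), and between 134 and 218 fragments lay behind each value. Tox passed the threshold under equal totals (0.41, limma adjusted p = 0.0497) and T cell marker scaling (0.44, limma adjusted p = 0.0376), but not when any single sample was left out.

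Tox2, a relative of Tox described in exhausted and follicular helper T cells, had a mean below 0.5 FPKM and was not tested with the other genes. It was at 0.246, 0.236, 0.198, 0.143 and 0.125 FPKM in CD8+4T1 and at 0.103, 0.078, 0.303, 0.278 and 0.266 FPKM in CD8+4T1+NaAc, from 5 to 17 fragments. CD8+4T1+NaAc samples lay on both sides of the control range, and no difference was detectable at this depth (exact permutation test, two-sided, p = 0.944, n = 5 per group). Tox4, a broadly expressed relative, was lower with NaAc (23.2 ± 0.959 against 19.7 ± 1.69 FPKM, SD, n = 5 each; log2 fold change -0.24, limma adjusted p = 0.0103). That call was absent under equal totals (-0.07, limma adjusted p = 0.493). Tox3 was at 0 in every sample but 1.

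The NR4A genes divided, with Nr4a2 higher and Nr4a1 lower. Nr4a2 (ENSMUSG00000026826, listed on chromosome 2 from 56996842 to 57014015), which encodes NURR1, was at 32.5, 30.1, 30.5, 28.3 and 29.5 FPKM in CD8+4T1 and at 43.2, 35.0, 35.9, 42.4 and 35.9 FPKM in CD8+4T1+NaAc. Every CD8+4T1+NaAc sample was above every CD8+4T1 sample, and replicates 1 and 4 were the highest. The mean moved from 30.2 ± 1.52 to 38.5 ± 3.96 FPKM (SD, n = 5 each), a log2 fold change of 0.35 (95% interval 0.19 to 0.50, limma adjusted p = 0.00328), and the call held whichever single sample was left out (0.30 to 0.38).

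Nr4a1 (ENSMUSG00000023034, listed on chromosome 15 from 101152150 to 101172676), which encodes NUR77, an early reporter of T cell receptor signal strength, was the most abundant of the 10 genes. It was at 136, 115, 108, 112 and 87.7 FPKM in CD8+4T1 and at 95.2, 83.6, 78.9, 76.6 and 72.0 FPKM in CD8+4T1+NaAc. The ranges overlapped, since replicate 5 of CD8+4T1 was below replicate 1 of CD8+4T1+NaAc. The mean was 111.8 ± 17.4 and 81.3 ± 8.86 FPKM (SD, n = 5 each), a log2 fold change of -0.45 (95% interval -0.70 to -0.21, limma adjusted p = 0.00884). This call held whichever single sample was left out (-0.54 to -0.38) and was lost under equal totals (-0.28, limma adjusted p = 0.0951) and T cell marker scaling (-0.25, limma adjusted p = 0.177). A long noncoding RNA gene listed on the same strand over 2740 bases (ENSMUSG00000121015) had a mean of 3.95 FPKM, so a small part of the reads could belong to either.

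Nr4a3 (ENSMUSG00000028341, listed on chromosome 4 from 48045153 to 48086447), which encodes NOR1, was near the threshold. It was at 49.9, 45.7, 44.2, 43.5 and 45.4 FPKM in CD8+4T1 and at 50.9, 31.6, 35.9, 37.0 and 30.9 FPKM in CD8+4T1+NaAc. Replicate 1 of CD8+4T1+NaAc was the highest of all 10 samples, and the other four of its group were below every control. With all samples the log2 fold change was -0.32 (95% interval -0.58 to -0.05, limma adjusted p = 0.0588) and was not called. Without replicate 1 of CD8+4T1+NaAc it was -0.44 (limma adjusted p = 0.000435), and without replicate 1 of both groups -0.40 (limma adjusted p = 0.000869). With all 10 samples, the fit with a replicate block (limma adjusted p = 0.036) and the one restricted to genes of at least 5 FPKM (limma adjusted p = 0.043) also called it lower.

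The summed NR4A FPKM was 187.7 ± 20.3 without and 157.0 ± 19.1 with NaAc (SD, n = 5 each). Nr4a2 held 16.2 ± 1.295% of it in CD8+4T1 and 24.6 ± 1.85% in CD8+4T1+NaAc, and Nr4a1 59.3 ± 3.23% and 51.9 ± 2.48% (SD, n = 5 each). Nr4a3 kept a like share, 24.5 ± 1.97% and 23.5 ± 2.17% (SD, n = 5 each). The ratio of Nr4a1 to Nr4a2 within a sample was between 2.97 and 4.20 in CD8+4T1 and between 1.81 and 2.39 in CD8+4T1+NaAc, and that of Nr4a3 to Nr4a2 between 1.45 and 1.54 and between 0.862 and 1.18. Neither ratio overlapped between the groups, replicate 1 included. A ratio within a sample does not depend on the scaling of that sample; the pairs were chosen after the values were seen, and no test is given.

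**Figure D3:**
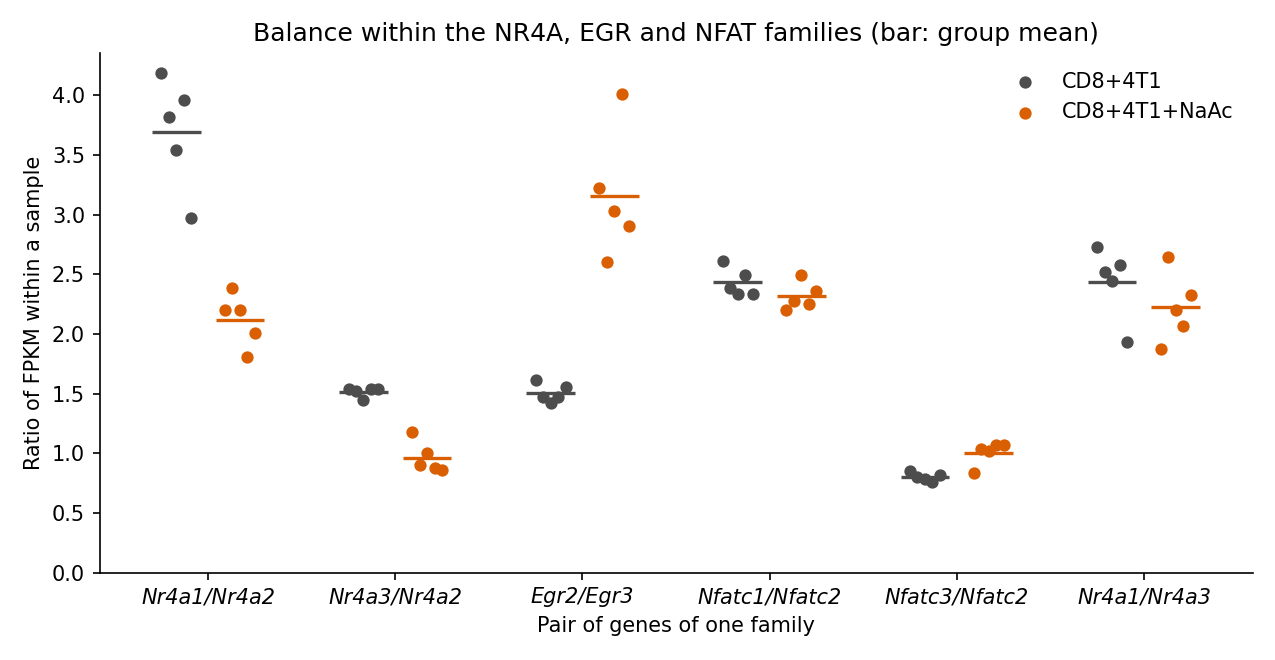
Ratio of FPKM between 2 genes of a family within each sample, CD8+4T1 in grey and CD8+4T1+NaAc in orange, with a bar at each group mean (n = 5). The groups part for Nr4a1/Nr4a2, Nr4a3/Nr4a2 and Egr2/Egr3 and overlap for Nfatc1/Nfatc2, Nfatc3/Nfatc2 and Nr4a1/Nr4a3.

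The EGR genes, whose products act downstream of NFAT and restrain T cell activation, also parted. Egr3 (ENSMUSG00000033730, listed on chromosome 14 from 70314652 to 70320063) was at 8.44, 8.0, 8.04, 8.09 and 5.94 FPKM in CD8+4T1 and at 4.62, 4.38, 4.03, 3.09 and 3.54 FPKM in CD8+4T1+NaAc. The groups did not overlap, and replicate 5 of CD8+4T1 stood below the rest of its group. The mean in CD8+4T1+NaAc was 0.510 times that in CD8+4T1 (3.93 ± 0.623 against 7.70 ± 0.999 FPKM, SD, n = 5 each), a log2 fold change of -0.96 (95% interval -1.24 to -0.68, limma adjusted p = 0.000245). Behind these values lay 230 to 621 fragments per sample. Egr3 was called under all alternatives run (-1.05 to -0.76, limma adjusted p between 5.19e-05 and 0.00194).

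Egr2 (ENSMUSG00000037868, listed on chromosome 10 from 67371305 to 67378018) did not follow Egr3. It was at 13.6, 11.8, 11.4, 11.9 and 9.26 FPKM in CD8+4T1 and at 14.9, 11.4, 12.2, 12.4 and 10.3 FPKM in CD8+4T1+NaAc. The groups overlapped over most of their range, with replicate 1 highest and replicate 5 lowest in both. The log2 fold change was 0.08 (95% interval -0.17 to 0.33, limma adjusted p = 0.622), so a fall of the size of Egr3 lay outside its interval. The ratio of Egr2 to Egr3 was between 1.42 and 1.61 in CD8+4T1 and between 2.59 and 4.03 in CD8+4T1+NaAc, and Egr3 held 40.0 ± 1.21% and 24.4 ± 2.92% (SD, n = 5 each) of their sum.

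Both EGR relatives that were tested were lower as well. Egr1, an immediate early factor induced by receptor signalling, was at 25.5 ± 4.6 FPKM in CD8+4T1 and 15.1 ± 2.31 FPKM in CD8+4T1+NaAc (SD, n = 5 each; log2 fold change -0.74, limma adjusted p = 0.00211). Egr4, the least abundant, was at 2.19 ± 0.556 and 0.866 ± 0.163 FPKM (SD, n = 5 each; -1.23, limma adjusted p = 0.000515). The groups overlapped for neither, and both calls held under equal totals (-0.57 and -1.07) and T cell marker scaling (-0.54 and -1.05). Egr2 was therefore the only EGR gene of the 4 that was not called lower; its difference from Egr1 and Egr4 was not tested.

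The scaling of the samples shifted these values together. Rescaling each sample to the same total FPKM moved the median of all log2 fold changes from -0.02 to 0.15, and scaling to T cell markers moved it to 0.18. Under both, 3 of the 9 genes were higher (Nfatc3, Tox and Nr4a2) and 1 was lower (Egr3); the share of higher genes among all called went from 48.1% to 77.9% and 81.7%. Relative to the median of all genes, the log2 fold change under equal totals was -0.94 for Egr3, -0.43 for Nr4a1, 0.28 for Nfatc3 and 0.37 for Nr4a2, against -0.94, -0.44, 0.28 and 0.36 in the FPKM as listed. Nfatc1 and Nfatc2, whose signs changed while neither was called, were at -0.10 and -0.03 relative to the median, against -0.11 and -0.03. With voom on recovered fragments the share was 65.0%, and 2 of the 9 genes were higher and 2 lower.

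**Figure D4:**
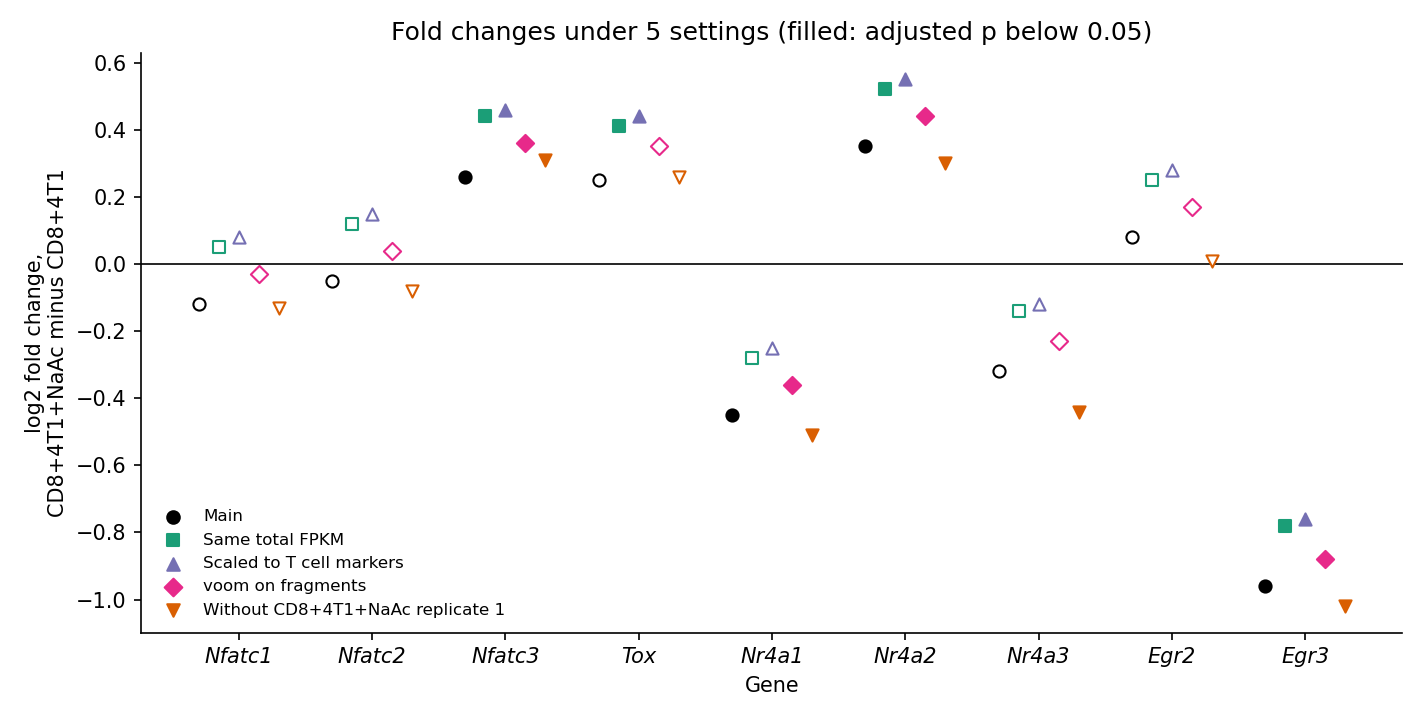
Log2 fold change, CD8+4T1+NaAc minus CD8+4T1, of the 9 tested genes under 5 settings, filled where the adjusted p was below 0.05. Nfatc3 and Nr4a2 stay above 0 and Egr3 below it with filled points in each setting, Nr4a1 is open under both rescalings, and Nr4a3 is filled only without replicate 1 of CD8+4T1+NaAc.

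Samples of a group also varied together in some of these genes. Deviations of log2(FPKM + 0.1) from the group mean were correlated over the 10 samples for the 36 pairs of the 9 tested genes, with exact permutation within groups and adjustment over the pairs. Nr4a1 and Egr2 had r = 0.92 (exact permutation, adjusted p = 0.0406), Nr4a1 and Egr3 r = 0.82 (adjusted p = 0.0406, exact permutation), and Nr4a2 and Nr4a3 r = 0.81 (adjusted p = 0.0406, exact permutation). Without the 2 samples farthest from the median these were 0.85, 0.76 and 0.82, and without replicate 1 of both groups 0.84, 0.83 and 0.70. Nr4a3 and Egr2 had r = 0.75 (exact permutation, adjusted p = 0.0406), which was 0.48 without the 2 farthest samples and so rests on them. Spearman's rho of the ranks within groups was 0.75, 0.80, 0.80 and 0.65 for these pairs, and no pair passed on that measure (lowest adjusted p = 0.345, exact permutation). Tox had no relation of this size with any of the others, with r between -0.14 and 0.49. Both Nr4a1 and Egr2 were highest in replicate 1 and lowest in replicate 5 of each group. The part of this shared order in their correlation was not tested.

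The 4T1 markers were set against the same deviations, since they differed most between the groups. For the 9 genes r with the log2 summed markers lay between -0.75 (Tox) and -0.10 (Nfatc3), with rho between -0.65 and -0.20, and none passed after adjustment over the 9 (lowest adjusted p = 0.233 for r and 0.327 for rho, exact permutation within groups). Without the 2 samples farthest from the median, r of Tox was -0.65. All these r were negative, and with 10 samples the absence of a call does not show that there was no relation. Group means were removed here, so the part of the 4T1 markers in the differences between the groups was not tested.

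Among 7045 protein-coding genes averaging at least 5 FPKM, those most like Nr4a1 in their deviations within groups were Ccdc137 (r = 0.95) and Slc9a5 (r = 0.95). For Egr2 they were 1600012H06Rik (r = 0.98) and Eme1 (r = 0.95), for Nfatc1 Chrm4 (r = 0.95), and for Tox Senp2 (r = 0.93) and Prr11 (r = 0.91). These are among the highest of 7045 correlations over 10 samples and are given as a description.

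Genes around NFAT and EGR were read in 7 lists, each chosen with earlier results known, against the 36.5% of all tested genes that were called (44.3% without replicate 1 of CD8+4T1+NaAc). Under equal totals 31.2% of all tested genes were higher and 8.83% lower, and with voom 25.2% and 13.6%. The genes that carry calcium signals to NFAT moved in both directions. Of 16 genes between phospholipase C and calcineurin, 6 were higher and 6 lower, with a median log2 fold change of 0.04 against -0.02 for all genes. Itpr3, a calcium release channel of the endoplasmic reticulum, rose from 8.60 ± 0.266 to 15.5 ± 1.41 FPKM (SD, n = 5 each; 0.83, limma adjusted p = 1.68e-05), and Orai1, the pore of store-operated calcium entry, rose by 0.37. Of the catalytic subunit genes of calcineurin, Ppp3ca was higher (2.84 to 3.88 FPKM, 0.44) and Ppp3cc lower (29.5 to 22.1 FPKM, -0.43). Ppp3cb was not called (6.41 to 6.62 FPKM, 0.05, limma adjusted p = 0.671). The calmodulin genes Calm2 (-0.33) and Calm3 (-0.31) were lower, but Calm3 was called only without replicate 1 of CD8+4T1+NaAc among the 10 fits with a sample left out (limma adjusted p = 0.000132 there and 0.0629 to 0.0984 without any other). Without that sample the list again held 6 higher and 6 lower, and under equal totals 8 higher and 1 lower (Calm2). Under equal totals the call of Ppp3cc was lost (-0.25, limma adjusted p = 0.0544), while under T cell marker scaling it was kept (-0.22, limma adjusted p = 0.0429).

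Of 9 tested genes that hold NFAT back, 0 were higher and 4 lower in limma, with a median of -0.20, a share of calls near that of all genes. Of the kinases that phosphorylate NFAT, those lower were Gsk3a (40.8 ± 0.45 to 30.3 ± 2.04 FPKM, SD, n = 5 each; -0.43, limma adjusted p = 0.00011), Dyrk1a (-0.31), Gsk3b (-0.30) and Dyrk2 (-0.27), while Csnk1a1 was at -0.01 (limma adjusted p = 0.858). Dyrk2, named since the list had only 4 calls, lost its call without replicate 1 or 5 of CD8+4T1 and without replicate 2 or 5 of CD8+4T1+NaAc (limma adjusted p up to 0.054). Under equal totals, where the median of the list was -0.03, 2 were higher and 1 (Gsk3a) was lower. At an unadjusted limma p below 0.05, 1 was higher and 5 were lower, beside 22.1% and 23.8% of all tested genes, and voom called 1 higher and 3 lower. Cabin1, an inhibitor of calcineurin, was at a log2 fold change of 0.16 (limma adjusted p = 0.0608). Without replicate 1 of CD8+4T1+NaAc it was called higher (0.20, limma adjusted p = 0.00804), which made 1 higher and 4 lower. Homer3, another gene of this list, was at -0.20 (limma adjusted p = 0.0635). Among the 10 fits with a sample left out, Homer3 was called lower only without replicate 5 of CD8+4T1 (-0.24, limma adjusted p = 0.0488).

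The 8 genes for EGR corepressors and anergy held 3 higher and 3 lower, with a median of -0.11. Rnf128, which encodes the anergy-linked ubiquitin ligase GRAIL, was at 0.318 ± 0.133 and 1.08 ± 0.252 FPKM (SD, n = 5 each; 1.52, limma adjusted p = 0.00176), and is among the 3 higher only because CD8+4T1+NaAc brought its mean above the filter of 0.5 FPKM. Ndrg1, an anergy factor, fell from 42.6 ± 2.74 to 29.4 ± 1.49 FPKM (SD, n = 5 each; -0.53, limma adjusted p = 7.03e-05). Dgkz, a kinase that removes diacylglycerol, rose by 0.28, and the ligase gene Itch fell by 0.31. The corepressors that bind EGR proteins parted, with Nab1 higher (0.23) and Nab2 lower (-0.35). Nab2 kept its call only without replicate 5 of CD8+4T1 or without replicate 1 of CD8+4T1+NaAc among the 10 such fits (limma adjusted p between 0.0148 and 0.103). Without the latter sample Cblb, a ubiquitin ligase gene, was also called lower (-0.21, limma adjusted p = 0.0486, against -0.17 and 0.118 with it), which made 3 higher and 4 lower. Under equal totals 3 were higher and 1 lower (Ndrg1). The calls of Itch (-0.13, limma adjusted p = 0.193) and Nab2 (-0.18, limma adjusted p = 0.317) were lost there.

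Partners of NFAT on DNA showed the largest rises in these lists. Of 10 tested, 4 were higher and 3 lower (median 0.16). Fos and Fosb, subunits of AP-1, rose from 5.97 ± 1.46 to 35.1 ± 10.4 FPKM (2.52, limma adjusted p = 2.77e-05) and from 8.53 ± 1.55 to 28.7 ± 7.71 FPKM (1.71, limma adjusted p = 0.000155; SD, n = 5 each), and Jun rose by 0.43. Batf3 (39.4 to 23.1 FPKM, -0.79), Irf4 (105.1 to 72.1 FPKM, -0.55) and Batf (17.4 to 14.3 FPKM, -0.29), which bind composite sites together in activated T cells, were lower. When single samples were left out, Batf kept its call in 3 fits of 10 (without replicate 1 of either group or replicate 2 of CD8+4T1+NaAc). Without replicate 1 of CD8+4T1+NaAc the AP-1 gene Fosl2 was also called lower (-0.24, limma adjusted p = 0.0317, against -0.13 and 0.416 with it), which made 4 higher and 4 lower. Under equal totals 5 were higher and 2 lower (Batf3 and Irf4), and the call of Batf was lost (-0.12, limma adjusted p = 0.328). Fos, Fosb and the summed 4T1 markers were each higher in every CD8+4T1+NaAc sample than in any control, and the part of the tumor cells in the rise of these AP-1 genes was not tested.

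Targets of NFAT and receptors of exhaustion were called at shares near that of all genes. Of 9 tested cytokine and activation genes 1 was higher and 3 were lower (median -0.08), namely Il3 (18.5 to 47.97 FPKM, 1.38), Tnfrsf9, which encodes the costimulatory receptor 4-1BB (481.4 to 324.2 FPKM, -0.57), Cd69, an early activation marker (-0.42), and Il2ra, the high-affinity IL-2 receptor chain (166.4 to 135.7 FPKM, -0.30). Of 7 inhibitory receptors 1 was higher and 2 were lower (median 0.06). Havcr2, which encodes TIM-3, rose from 2.63 ± 0.222 to 7.43 ± 0.849 FPKM (SD, n = 5 each; 1.46, limma adjusted p = 9.05e-06), while Tigit (148.1 to 119.5 FPKM, -0.31) and Pdcd1, which encodes PD-1 (61.3 to 53.2 FPKM, -0.20), fell. Without replicate 1 of CD8+4T1+NaAc the targets held 2 higher and 4 lower, since the cytokine gene Csf2 (-0.30, limma adjusted p = 0.0152, against -0.08 and 0.80 with it) and the death ligand gene Fasl (0.60, limma adjusted p = 0.0457, against 0.49 and 0.0886) were also called; Fasl was called without replicate 5 of CD8+4T1 too (limma adjusted p = 0.00647). The receptors then held 2 higher and 2 lower, with Cd160 added (0.21, limma adjusted p = 0.0493, against 0.09 and 0.647). With voom 3 targets were higher and 3 lower. Under equal totals 3 of the cytokine and activation genes and 2 of the inhibitory receptors were higher, 1 gene of both lists was lower (Tnfrsf9), and the calls of Il2ra, Cd69, Tigit and Pdcd1 were lost.

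Factors of progenitor-like CD8+ T cells, from which terminally exhausted cells arise, were mostly higher. Of 9 tested, 6 were higher and 2 lower, with and without replicate 1 of CD8+4T1+NaAc, beside 17.6% higher and 19.0% lower over all genes, and their median was 0.68. Some markers of other cells were also called higher, among them 5 of the 7 tested 4T1 markers given before. The others were Cd4 (0.541 ± 0.169 to 1.601 ± 0.187 FPKM), Lyz2 (0.536 ± 0.270 to 1.119 ± 0.385 FPKM) and the class II gene H2-Aa (0.151 ± 0.078 to 1.045 ± 0.226 FPKM; SD, n = 5 each). H2-Aa passed the filter only through CD8+4T1+NaAc. Cd68, Cd79a and Cd14 were tested and not called. The part of other cells in the rises of the progenitor factors was not tested. Slamf6, a surface marker of progenitor-like cells, rose from 0.533 ± 0.141 to 1.52 ± 0.179 FPKM (1.38). Id3, an inhibitor of E proteins, rose from 6.82 ± 0.88 to 17.5 ± 3.55 FPKM (1.33), and Cxcr5, a chemokine receptor, from 3.06 ± 0.267 to 7.28 ± 0.603 FPKM (1.23; SD, n = 5 each throughout). Their limma adjusted p-values were 0.000253, 7.3e-05 and 9.4e-06 in this order. Lef1, a partner of TCF-1, fell from 8.45 ± 0.307 to 6.34 ± 0.516 FPKM (SD, n = 5 each; -0.41), and Foxo1, a factor of quiescence, by 0.34. Under equal totals 7 were higher and 1 lower, beside 31.2% and 8.83% of all genes, and the call of Foxo1 was lost.

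**Figure D5:**
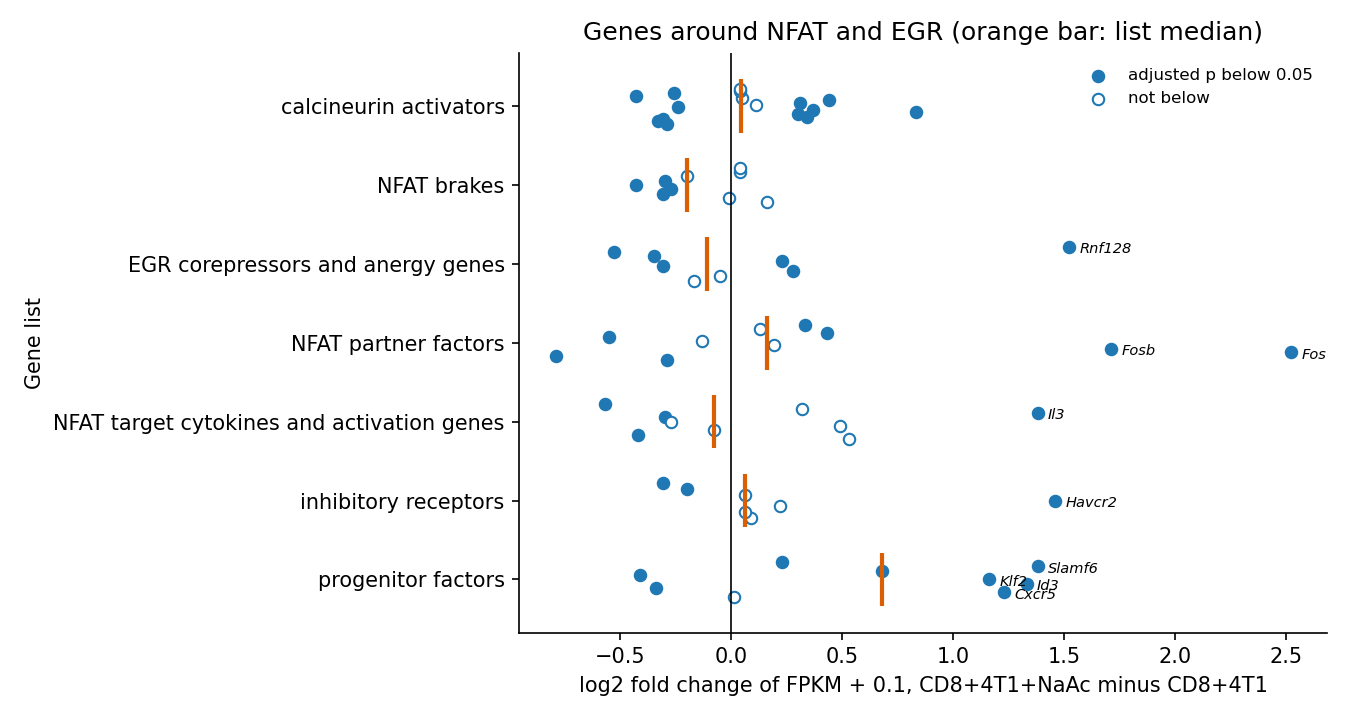
Log2 fold changes of FPKM + 0.1, CD8+4T1+NaAc minus CD8+4T1, of the tested genes in 7 lists, filled where the adjusted p was below 0.05, with the median of each list as an orange bar. The bar of the progenitor factors stands at 0.68, Fos at 2.52 and Havcr2 at 1.46, and the NFAT brakes have no filled point above 0.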

How the data were processed

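The expression table held 1 FPKM column for each of 10 samples, 5 per group, and groups were read from the sample labels. FPKM were computed and deposited by the authors, who trimmed reads with fastp, mapped them with HISAT2 2.0.5, assembled them with StringTie 1.3.3b and counted them with featureCounts 1.5.0-p3, according to the submitters' processing notes, and tested groups with DESeq2. The gene length, an unnormalized value in bases, was deposited by the authors in the same table. The genome build and strand setting were not given in the sources used here, so positions are printed as listed, and those of promoters are from RefSeq on GRCm38.p6.

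FPKM times gene length gave whole fragments for 100% of values (within 0.1), and the samples were scaled to 16306447 to 18853726 fragments. Of 57825 genes, the 15710 that averaged at least 0.5 FPKM entered limma (version 3.58.1, R version 4.3.3) as log2(FPKM + 0.1), with variance trend and robust moderation and Benjamini-Hochberg adjustment over all of them, and were called at an adjusted p below 0.05. Fold changes on this scale understate those of low genes. The count test was limma's voom on the recovered fragments, which called 6092 genes. limma was tested on simulated data. Correlations used exact permutation within groups (14400 arrangements), and a permutation of 5 against 5 cannot give p below 0.00794.

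The members, lists, tests and alternatives were chosen with earlier results of these data known. The genes named are the 10 members, their relatives, up to 3 genes called higher and 3 called lower with the largest change in each list, and the 2 genes most like Nfatc1, Tox, Nr4a1 and Egr2, of which 1 for Nfatc1 is not reported here. Ppp3cb, Dyrk2, Csnk1a1, Cabin1, Homer3, Cblb, Fosl2, Csf2, Fasl, Cd160, the markers and 2 genes that overlap members (Esrp2 and ENSMUSG00000121015) were named after their values were seen. Alternatives were pseudocounts of 1 and 0.01, no filter, a mean of at least 5 FPKM, equal totals, median-ratio scaling, scaling to T cell markers, limma without trend and robust moderation, a replicate block, voom, both replicates 1 left out, and each sample left out in turn. No columns of other samples were present (0).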

Additional observations from a re-analysis of the deposited data

Results flagged for a closer look

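Dixon's ratio, the distance from an extreme sample to its neighbour over the range of its 5 samples, was taken as high above 0.71. Of 22 groups of 5 checked on the log2(FPKM + 0.1) of the 10 genes and the number of genes above 0, 4 held such a sample, where chance gives about 1.1. Egr3 was lowest in replicate 5 of CD8+4T1, at 5.94 FPKM against 8.0 to 8.44 FPKM in the rest, with a ratio of 0.849. Without this sample the Egr3 log2 fold change was the largest in size of the 10 fits that left out 1 sample, at -1.05. Nfatc2 was highest in replicate 1 of CD8+4T1+NaAc, at 11.1 FPKM against 10.1 to 10.2 FPKM, with a ratio of 0.817. Genes above 0 were fewest in replicate 1 of both groups, with ratios of 0.916 in CD8+4T1+NaAc and 0.848 in CD8+4T1.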

How the results depend on the processing

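Most results kept their direction and side of the threshold under the alternatives run. A mean of at least 5 FPKM left 7800 genes tested and 3733 called, 1257 higher and 2476 lower (33.7% higher, against 48.1% in the main comparison). The median log2 fold change of the genes tested was -0.08, against -0.02 in the main comparison. With this filter Nr4a3 was called (-0.32, limma adjusted p = 0.043). Under equal totals and T cell marker scaling 1 of the 10 genes was lower in place of 2, Nfatc1 reversed to 0.05 and 0.08 and Nfatc2 to 0.12 and 0.15, and voom gave 0.04 for Nfatc2; none of these reversed values was called. Leaving out 1 sample gave 4947 to 6965 genes called, and the highest count was without replicate 1 of CD8+4T1+NaAc. Of the 10 genes, Nr4a3 alone changed its call when a sample was left out (-0.44 to -0.26, called without replicate 1 of CD8+4T1+NaAc). Over all tested genes, the deviations of samples with the same replicate number correlated with r between -0.03 and 0.07. Only numbers 1 and 4 correlated best with their own, so samples were not taken as paired. A replicate block called 5399 genes and 5 of the 10, with Nr4a3 (-0.32, limma adjusted p = 0.036) added to the 4. The block lowered the standard errors of the NR4A and EGR genes, most for Nr4a1 (0.11 to 0.052) and Egr2 (0.11 to 0.051). It raised those of Nfatc1, Nfatc2 and Nfatc3 and left that of Tox at 0.14. The causes were not tested. Tox2 rested on 5 to 17 fragments per sample and Tox on 134 to 218.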
